A study of Sus scrofa with 24 samples.

Results

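Cyclic stretch was compared with static culture in pieces of porcine aortic valve leaflet kept without added agents. The comparison takes 12 of the 24 arrays of the series, chosen by their labels: 6 arrays of stretched leaflets without agents and 6 of static leaflets without agents. All 23999 probe sets other than the array's controls were tested, out of 24123 in the file. Both groups came from domestic pigs of 12 to 24 months, and a piece of 15 by 10 mm was cut from the middle of each cusp. Stretched pieces hung by sutured loops in a tensile bioreactor and were pulled cyclically for 24 h at 37 °C, and static pieces were kept in medium without stretch for the same 24 h; the amplitude and rate of the stretch are not given in the sources used here. Both groups were kept in the same medium with fetal bovine serum and ascorbic acid, so that the static leaflet is cultured tissue and not fresh valve. The other 12 arrays hold stretched and static leaflets that also received 5HT plus Fluox. Each array holds the total RNA of 1 piece of whole leaflet. Leaflets from each valve had been allotted to the groups at random, so that stretched and static arrays may share an animal, and the p-values measure the spread between these samples.

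An aortic valve leaflet is a thin sheet of layered collagen, proteoglycan and elastic fibres, kept by interstitial cells of fibroblast and myofibroblast type and covered by endothelium. In the body it is bent and stretched at every heartbeat, and its interstitial cells are known to adjust matrix turnover, contractile proteins and growth factor signals to the load they feel. The leaflet holds few vessels and is fed largely by diffusion, and its glycolytic genes answer to oxygen through the hypoxia-inducible factors, as they do in other tissues.

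Transcripts of fuel-using enzymes, of endothelial markers and of innate immune receptors read lower in stretched leaflets. Enzymes that turn glucose into pyruvate, into UDP-glucose and into mannose sugars fell together, by 2.85 (SE 0.17) on the log2 scale for the hexokinase HK1 and by 3.25 (SE 0.23) for UGP2 with 6 leaflets a group. So did the oxygen sensor EGLN1, the fatty acid activator ACSL1, the endothelial cadherin CDH5, the endotoxin receptor TLR4 and the antiviral transcription factor IRF3. Genes that rose included the protease inhibitor TIMP3 (3.73, SE 0.34), the heparan sulfate editor SULF2, the growth factors PTN and BMP4, the calponin CNN1 of contractile cells, and the stress genes GADD45A, GADD45G and PLK2. All of these passed a rule that refits each change with a measure of the RNA quality of the 24 arrays. When that fit was limited to the 12 arrays of this comparison, TLR4, SULF2, PTN and CNN1 kept their direction and lost their call (adjusted p = 0.352, 0.16, 0.0526 and 0.0564). Large sets that also read lower in stretched tissue, among them the proteasome and the mitochondrial ribosome, did not pass the rule with any member.

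Levels are log2 values, on a scale that ran from 1.12 to 15.4 over these arrays with a median of 4.78, so a difference of 1 is a 2-fold difference. Changes are stretched minus static, also in log2, from a linear model of the 4 groups of the series, with p-values adjusted over all 23999 probe sets. Symbols were known for part of the array: 10069 probe sets carried exactly 1 gene symbol, 6765 different ones. The defining markers of valve interstitial cells were high in both groups, with vimentin (VIM) between 13.39 and 14.22 in stretched leaflets (median 14.01) and between 11.32 and 12.99 in static leaflets (median 12.31). Markers of heart muscle averaged between 2.79 and 3.01 in stretched leaflets and between 2.54 and 2.80 in static leaflets, near the bottom of the scale, and those of lymphocytes between 2.60 and 3.01 and between 2.59 and 3.09 in the same order. In whole tissue, fewer cells of a type and less RNA per cell cannot be told apart.

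The arrays of stretched leaflets also differed in their control probe sets. The difference between the 3′ and the 5′ ends of the GAPDH and EF1A transcripts, which widens when RNA is broken or incompletely copied, was 0.98, 2.18, 2.42, 1.63, 2.30 and 3.06 in stretched leaflets 1 to 6, and lay between 0.57 and 0.91 in static leaflets. The means were 2.09 ± 0.71 in stretched and 0.77 ± 0.14 in static leaflets (SD, 6 arrays each; exact permutation test, p = 0.00216, adjusted p = 0.0036 over 10 array measures), and all 6 stretched arrays lay above the static range. The bacterial spike-in controls averaged 12.08 ± 0.87 in stretched and 11.03 ± 0.54 in static leaflets (exact permutation test, p = 0.0281, adjusted p = 0.0312), and the probe set for 5S ribosomal RNA averaged 9.74 ± 1.06 and 5.46 ± 1.03 (exact permutation test, p = 0.00216, adjusted p = 0.0036). Stretched leaflet 1 stood closest to the static arrays, just above their range in the 3′ to 5′ difference, inside it for the spike-ins and above it for 5S RNA.

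**Figure D1:**
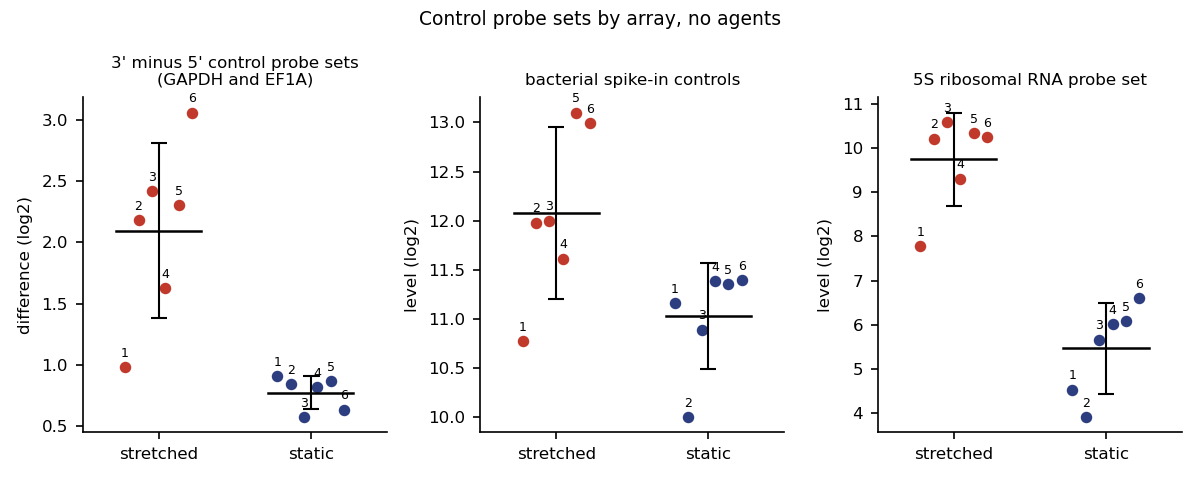
Control probe sets of each array on the log2 scale: the 3′ minus 5′ difference of GAPDH and EF1A (left), the mean level of the bacterial spike-ins (middle) and the 5S ribosomal RNA probe set (right). Numbered points are arrays, with stretched leaflets on the left of each panel and static leaflets on the right, and bars are mean ± SD; stretched leaflet 1 lies at 0.98 in the left panel, nearest to the static range of 0.57 to 0.91.

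For this reason each change was read in 3 fits. A probe set is called clear here when it was called at an adjusted p under 0.05 with 1 sign in the plain fit, again once each array's own 3′ to 5′ difference had entered the model (the covariate from here on), and again without stretched leaflets 3, 5 and 6, the 3 arrays of widest difference. Its change with the covariate also had to be at least 0.5 times that in the plain fit, and the 6 stretched and 6 static arrays must not overlap. Because the groups do not overlap in the 3′ to 5′ difference, the covariate extends a line fitted within groups across a gap, so stretch and RNA quality cannot be fully told apart by it. As a further description without a test, the value of stretched leaflet 1 minus the static mean is given for some genes; that reading was added after the data had been seen.

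The plain fit called 12600 probe sets, 52.5% of those tested, with 7067 higher (29.4%) and 5533 lower (23.1%) in stretched leaflets. In 4931 probe sets (20.5%) the groups did not overlap, with 12.2% of all probe sets above and 8.36% below every static leaflet. With the covariate 5176 were called (21.6%), 8.85% higher and 12.7% lower: 4548 of the 12600 kept their call and direction, and 8052 lost it, 5418 that had been higher and 2634 that had been lower. None was called in opposite directions by the 2 fits, and 628 were called with the covariate alone. With the spike-in level as the covariate in its place 4738 were called (19.7%), and with both 5184 (21.6%). Clear were 2517 probe sets (10.5%), 791 higher (3.3%) and 1726 lower (7.19%), of which 2194 changed at least 2-fold; 2398 of them were also called with the spike-in covariate and 2430 with both covariates. In the plain fit the higher calls were the more frequent, and among the clear changes the lower ones. Both orders depend on the processing. Quantile normalization turned the first, with 4720 higher and 5093 lower calls. So did leaving out dim probe sets (3362 and 4759) and, narrowly, fitting only these 12 arrays (4208 and 4251). Centring the arrays on their brighter probe sets kept the first, with 11573 and 4426. It shifted the array-wide median change by 0.23 and turned the second, with 1953 clear rises and 1266 clear falls. Without stretched leaflet 1 the clear count was 4492, and 2328 of the 2517 were among those. When only these 12 arrays were fitted the clear count was 708, of which 698 were among the 2517. Of the 157 clear genes named here, 70 were called and 87 were not when the covariate was fitted on these 12 arrays alone, and 0 turned their sign.

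**Figure D2:**
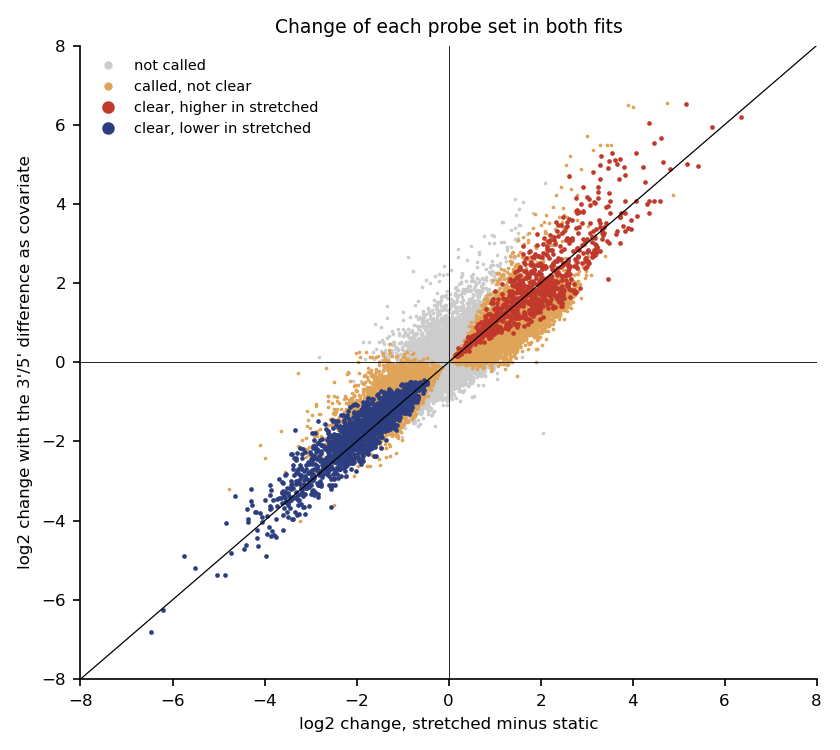
Change of each of the 23999 probe sets in the plain fit (horizontal axis, log2, stretched minus static) and once the 3′ to 5′ difference had entered the model (vertical axis, log2); the diagonal marks equal changes. The 791 clear rises and 1726 clear falls lie along the diagonal, and many called probe sets that are not clear lie nearer to 0 on the vertical axis.

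Clear changes were compared with the other arrays of the series and with the authors' own calls. In the 12 arrays with 5HT plus Fluox, where the same fit called 52.2% of probe sets for stretched against static, 2248 of the 2517 clear probe sets (89.3%) were called in the same direction and 0 in the opposite one, against 6915 of the 10083 called but not clear (68.6%). That comparison shares no array with this one, but both take their spread from the same 24-array fit. Its stretched arrays had a wide 3′ to 5′ difference too, between 1.85 and 4.66 against 0.70 to 0.97 in their static arrays. The authors' deposited table called 13827 probe sets (57.6%) for this comparison at an adjusted p under 0.05, and all 2517 were among them in the same direction. That table rests on the same arrays, in which the 2517 had been chosen for a low adjusted p, so this overlap adds no support. Stretched leaflet 1 alone lay outside the static range in 48.4% of probe sets, above it in 28% and below it in 20.4%.

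Gene groups below are counted with 1 probe set per symbol, the brightest, and read against all 6765 symbols, of which 20.2% rose and 32% fell in the plain fit, and 3.49% were clear rises and 9.33% clear falls. The median change of all symbols was -0.20, and with the covariate -0.07. The groups were listed with earlier results of these data known, so their counts describe them and test nothing.

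**Figure D3:**
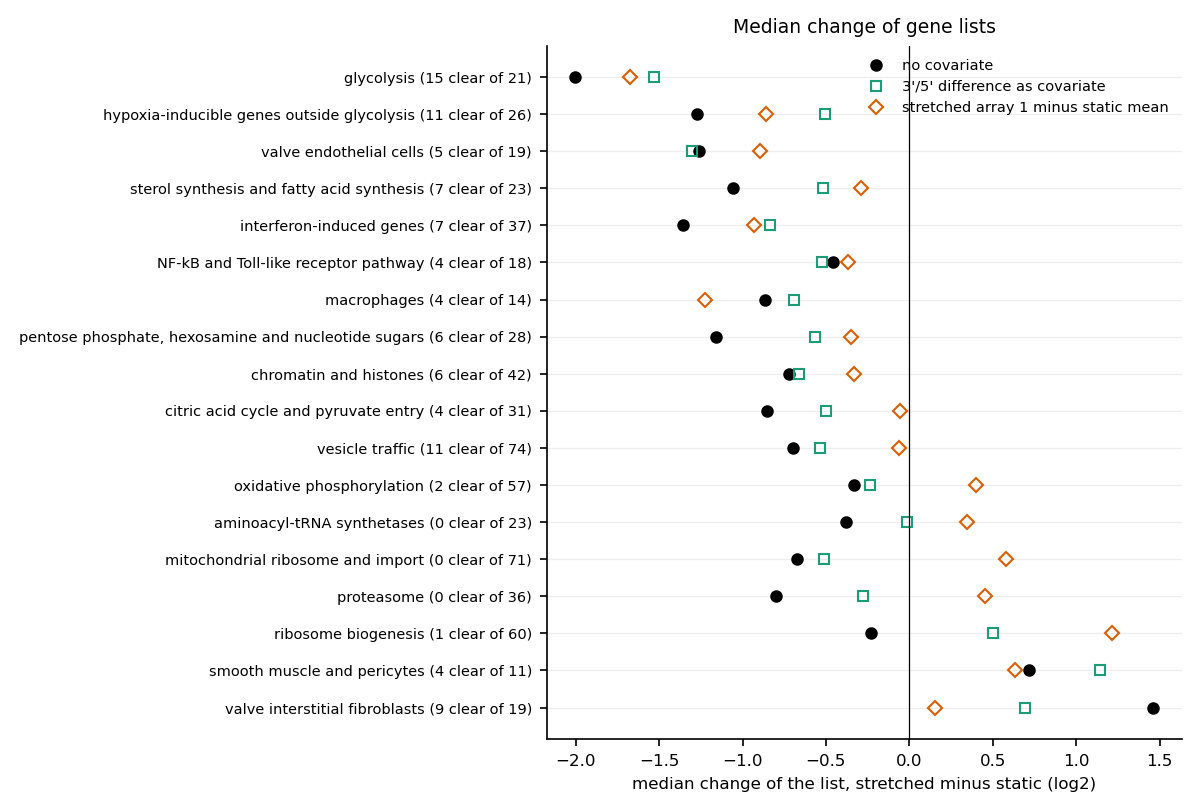
Median log2 change, stretched minus static, of 18 gene lists in the plain fit (filled circles), with the covariate (squares) and in stretched leaflet 1 minus the static mean (diamonds); labels give the clear members of those measured. Glycolysis lies left of 0 by all 3 readings, and the proteasome and the mitochondrial ribosome lie left of 0 in both fits and right of 0 in stretched leaflet 1.

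The genes of enzymes that use glucose fell together. Of 21 measured glycolysis genes 17 fell and 1 rose, and 15 of the falls were clear; the median change was -2.001, -1.53 with the covariate and -1.67 in stretched leaflet 1. The hexokinase HK1, which traps glucose in the cell, lay between 6.99 and 7.86 in stretched leaflets (median 7.24) and between 9.88 and 10.55 in static leaflets (median 10.19). The groups were far apart, with a change of -2.85 (SE 0.17, adjusted p = 3.67e-10) and -2.62 with the covariate. ENO2, an enolase of the lower pathway, changed by -3.33 (SE 0.24, adjusted p = 5.54e-09) and GPI, which turns glucose 6-phosphate into fructose 6-phosphate, by -2.93 (SE 0.25, adjusted p = 3.60e-08). The lactate exporter SLC16A3 sat at the bottom of the scale in every stretched leaflet, at most 2.83, against at least 8.49 in static leaflets. PDK4, a kinase that closes the entry of pyruvate into mitochondria, was the rise of this list, at 2.51 (SE 0.62, adjusted p = 0.00283), but its groups overlapped and its change of 1.09 with the covariate did not pass the test (adjusted p = 0.218).

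Genes of the side roads from glucose fell too. Among genes of the pentose phosphate pathway, of hexosamines and of nucleotide sugars, 19 of 28 fell and 1 rose, with 6 clear falls and a median of -1.16. That median was smaller in the other readings, -0.56 with the covariate, -0.12 with the covariate on these 12 arrays alone and -0.35 in stretched leaflet 1. UGP2 makes UDP-glucose, the sugar donor for glycogen and the starting point of the glucuronic acid in matrix glycans. Its level lay between 7.29 and 9.10 in stretched leaflets (median 8.13) and between 11.25 and 11.77 in static leaflets (median 11.43). The change of -3.25 (SE 0.23, adjusted p = 4.77e-09) was as large with the covariate (-3.49) and in stretched leaflet 1 (-3.38), and with 5HT plus Fluox it was -2.57 (adjusted p = 4.84e-08). PGM1, which links glucose 6-phosphate to glucose 1-phosphate, lay between 7.80 and 9.28 in stretched leaflets (median 9.05) and between 10.81 and 11.38 in static leaflets (median 11.01), a change of -2.29 (SE 0.21, adjusted p = 6.96e-08). MPI, which leads from fructose 6-phosphate to mannose, changed by -4.72 (SE 0.43, adjusted p = 7.37e-08); its stretched levels, between 1.93 and 3.79, were near the bottom of the scale, so the size of its fall has a floor.

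Hypoxia-inducible genes outside glycolysis were divided by the RNA quality rule. Of 26 measured 17 fell and 2 rose, and 11 of the falls were clear. EGLN1, the oxygen-sensing prolyl hydroxylase that marks hypoxia-inducible factors for destruction and is itself induced by them, lay between 8.43 and 9.82 in stretched leaflets (median 8.91) and between 10.23 and 11.18 in static leaflets (median 10.85). No stretched leaflet reached the static range, and the change was -1.84 (SE 0.19, adjusted p = 4.91e-07), with -2.39 in stretched leaflet 1. The mitochondrial genes FAM162A (-2.30, SE 0.24, adjusted p = 3.33e-07) and BNIP3L, a receptor for mitophagy (-1.59, SE 0.21, adjusted p = 5.68e-06), fell clearly too, as did the disulfide-forming oxidase ERO1A (-1.27, SE 0.17, adjusted p = 7.00e-06) and the histone demethylase KDM3A (-1.82, SE 0.26, adjusted p = 2.18e-05). The transcription repressor BHLHE40, a hypoxia target that also belongs to the circadian clock, changed by -3.33 (SE 0.56, adjusted p = 9.83e-05). HIF1A, the oxygen-regulated subunit of the factor, was clear as well (-1.11, SE 0.19, adjusted p = 0.000152). It was picked out after its values were seen, and its change was -0.43 (adjusted p = 0.614) with the covariate on these 12 arrays alone. In that fit BHLHE40, KDM3A, ERO1A and BNIP3L also kept their direction and lost their call (adjusted p = 0.265, 0.135, 0.0751 and 0.0621).

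VEGFA, the angiogenic growth factor that hypoxia induces, was on the other side. It lay between 6.77 and 10.99 in stretched leaflets (median 10.82) and between 10.75 and 12.51 in static leaflets (median 12.32), with stretched leaflet 6 at the low end. Its change of -1.91 (SE 0.73, adjusted p = 0.0343) became 0.13 with the covariate (adjusted p = 0.889), and the call was also lost without stretched leaflet 5 or 6 or without any of static leaflets 3 to 6 (-1.25, adjusted p = 0.099, without stretched leaflet 6). Of its 3 other probe sets above 5, none was called (changes of -0.29, -1.20 and -1.14).

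**Figure D4:**
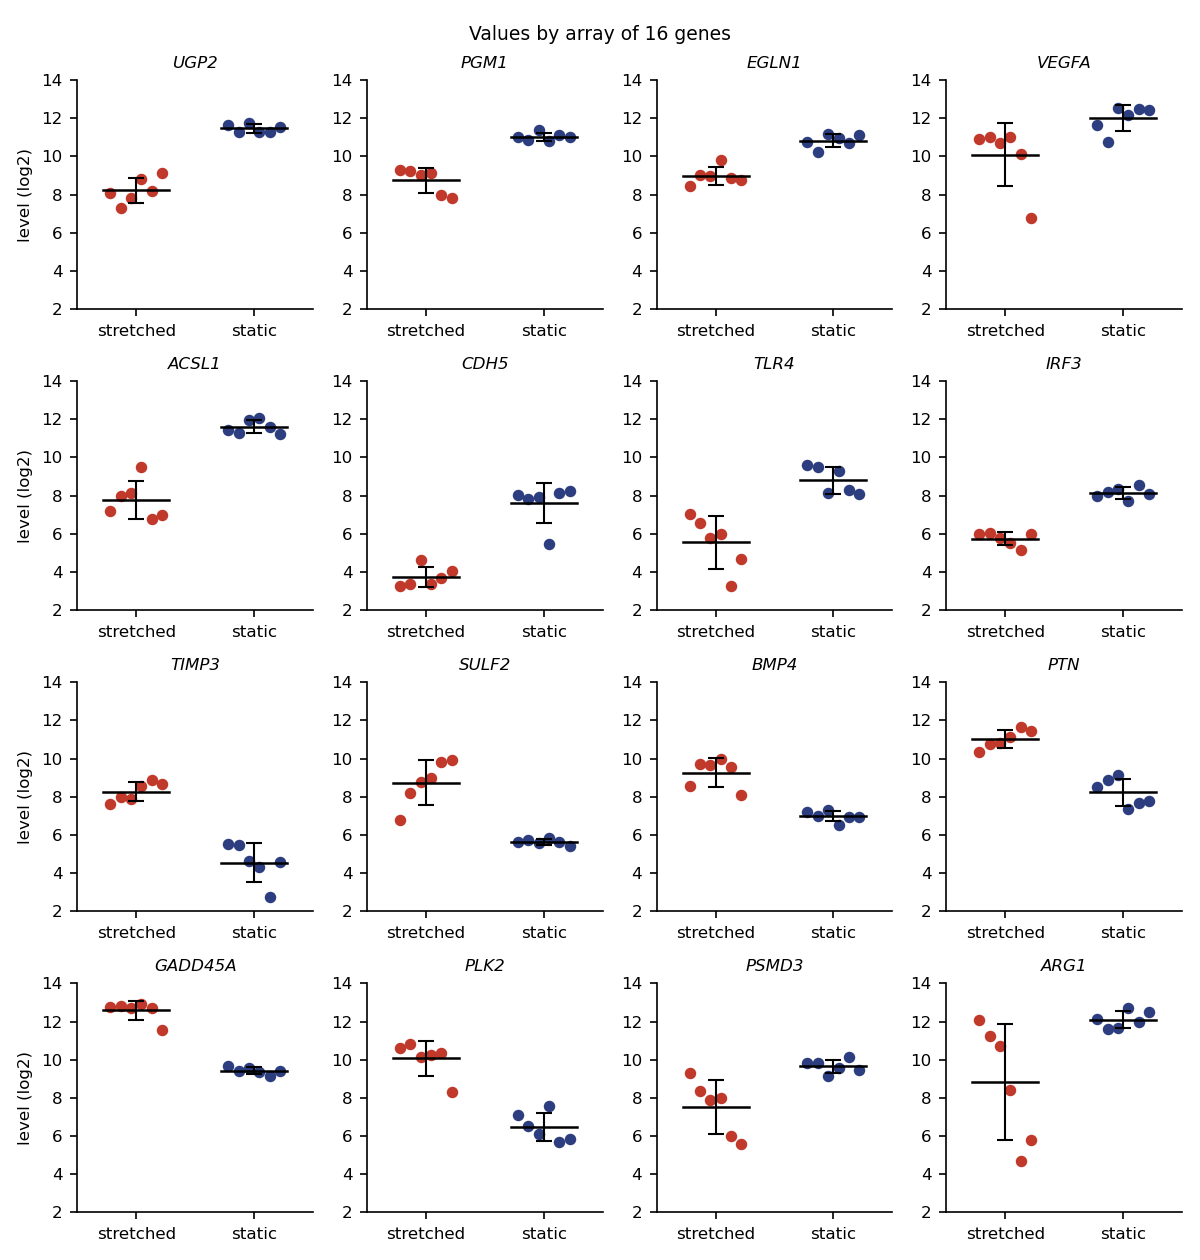
Level (log2) of 16 genes in every array, stretched leaflets on the left and static leaflets on the right of each panel, with mean ± SD. UGP2, PGM1, EGLN1, ACSL1, CDH5, TLR4 and IRF3 do not overlap and lie lower in stretched leaflets, TIMP3, SULF2, BMP4, PTN, GADD45A and PLK2 do not overlap and lie higher, and VEGFA, PSMD3 and ARG1 have stretched leaflets inside the static range.

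Single steps of fat oxidation and several of fat and sterol synthesis fell clearly. In fatty acid oxidation and ketone use 10 of 40 genes rose and 12 fell, and 4 falls and 0 rises were clear, near the shares of all symbols. ACSL1, which joins long-chain fatty acids to coenzyme A before they are burned or stored, lay between 6.80 and 9.49 in stretched leaflets (median 7.58) and between 11.25 and 12.05 in static leaflets (median 11.53). This was among the largest clear falls of the array, -3.85 (SE 0.38, adjusted p = 1.91e-07), and stretched leaflet 1 showed it at -4.43. The isomerase ECI2 (-2.70, SE 0.31, adjusted p = 1.39e-06), the short-chain dehydrogenase ACADS (-2.81, SE 0.41, adjusted p = 2.55e-05) and ETFDH, which hands electrons from fat oxidation to the respiratory chain (-1.77, SE 0.31, adjusted p = 0.000148), were the other clear falls; a second probe set of ETFDH was not called (-0.33, adjusted p = 0.282). In sterol and fatty acid synthesis 11 of 23 genes fell and 1 rose, with 7 clear falls. The desaturase SCD changed by -4.29 (SE 0.45, adjusted p = 4.34e-07), NSDHL, an enzyme late in cholesterol synthesis, by -1.80 (SE 0.28, adjusted p = 3.92e-05), and FDPS, which makes farnesyl diphosphate, by -1.70 (SE 0.54, adjusted p = 0.0141), of which -0.71 was left with the covariate (adjusted p = 0.406).

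Lipid handling changed in both directions. The very low density lipoprotein receptor VLDLR lay between 4.47 and 6.71 in stretched leaflets (median 5.63) and between 8.45 and 9.24 in static leaflets (median 8.79) and fell by 3.19, with the same size in the covariate fit (-3.21). NR1H3, the nuclear receptor LXR alpha that senses oxysterols (-2.95, SE 0.39, adjusted p = 8.55e-06), and the phospholipid transfer protein PLTP (-2.47, SE 0.34, adjusted p = 1.33e-05), known as an LXR target, fell too. Lipoprotein lipase, LPL, which frees fatty acids from lipoproteins, lay between 5.88 and 7.22 in stretched leaflets (median 6.62) and between 3.46 and 4.89 in static leaflets (median 3.98) and rose by 2.60 (SE 0.30, adjusted p = 1.71e-06), with no overlap. In all, 8 of 41 genes of this list rose and 11 fell, and 2 rises and 6 falls were clear.

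In mitochondria the clear falls lay beside the cycle more than in the respiratory chain. Of 31 genes of the citric acid cycle and pyruvate entry 19 fell and 1 rose, with 4 clear falls; the median was -0.85, but -0.06 in stretched leaflet 1. The clear ones were the citrate exporter SLC25A1 (-2.49, SE 0.32, adjusted p = 5.10e-06), the aspartate aminotransferase GOT2 (-1.40, SE 0.20, adjusted p = 2.05e-05), the mitochondrial PCK2, which makes phosphoenolpyruvate (-2.77, SE 0.43, adjusted p = 4.18e-05), and SUCLG2, a subunit of succinyl-CoA ligase (-1.18, SE 0.25, adjusted p = 0.000915). Of 57 subunits and assembly genes of oxidative phosphorylation 16 fell and 3 rose, and 1 fall and 1 rise were clear, NDUFV2 of complex I (-1.30, SE 0.26, adjusted p = 0.000561) and ATP5E of the ATP synthase (0.60, SE 0.13, adjusted p = 0.000744).

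The markers of valve endothelium read lower in stretched leaflets as a group. Their mean level lay between 3.81 and 4.03 in stretched leaflets and between 4.86 and 5.81 in static leaflets, without overlap. Of 19 markers 13 fell, 5 clearly, and 1 rose, with a median of -1.26 that was -1.30 with the covariate and -0.90 in stretched leaflet 1. CDH5, the cadherin of endothelial junctions, lay between 3.28 and 4.64 in stretched leaflets (median 3.51) and between 5.47 and 8.24 in static leaflets (median 8.003). Its change was -3.90 (SE 0.35, adjusted p = 5.60e-08), and the lowest static value belonged to leaflet 4. Between the groups with 5HT plus Fluox it was -4.70 (adjusted p = 4.36e-09). ENG, a coreceptor for TGF-beta and BMP ligands on endothelium, lay between 5.38 and 5.92 in stretched leaflets (median 5.64) and between 7.90 and 9.63 in static leaflets (median 8.56), and changed by -3.06 (SE 0.23, adjusted p = 8.65e-09). ECSCR, an endothelial surface protein, was between 2.56 and 3.72 in stretched leaflets, near the bottom of the scale, and between 7.36 and 10.67 in static leaflets. The angiopoietin receptor TEK (-3.52, SE 0.44, adjusted p = 3.46e-06) and the selectin SELP, which captures leukocytes (-3.63, SE 0.65, adjusted p = 0.000205), completed the clear falls.

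Among the clear falls of other lists were genes that endothelium is also known to express. They were named because they were clear, so they add no support to the fall of the markers. Thrombomodulin, THBD, an anticoagulant receptor, lay between 3.37 and 6.05 in stretched leaflets (median 4.70) and between 6.53 and 9.21 in static leaflets (median 9.06), and its change was -3.60 (SE 0.71, adjusted p = 0.000526), -4.24 with the covariate. The sphingosine 1-phosphate receptor S1PR1, which keeps endothelial barriers tight, changed by -3.09 (SE 0.30, adjusted p = 1.56e-07) without overlap. Of the listed markers, the junction protein PECAM1 lay, in its brightest probe set, between 4.77 and 7.64 in stretched leaflets (median 6.91) and between 5.98 and 9.05 in static leaflets (median 8.03), and its change of -1.26 (SE 0.46, adjusted p = 0.0292) was not called once the covariate entered (-0.70, adjusted p = 0.378) and without stretched leaflet 4 or 6 or static leaflet 2, 3 or 6. Its second, dimmer probe set changed by -1.77 (adjusted p = 0.0056), and by -1.13 with the covariate (adjusted p = 0.174). CD34, which fibroblasts also carry, was the rise of the list at 1.42 (SE 0.47, adjusted p = 0.0181), and not clear (1.09 with the covariate, adjusted p = 0.203), and its call was lost without stretched leaflet 5.

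Single macrophage markers fell clearly, while the share of falls in their list was near that of all symbols. Of 14 markers 5 fell and 2 rose, against 32% and 20.2% of all symbols. The mean level of the list lay between 4.72 and 5.15 in stretched leaflets. In static leaflets it lay between 5.21 and 6.85, where leaflets 1 and 2 stood above the rest. The integrin chain ITGB2 of leukocytes was near the bottom of the scale in every stretched leaflet, at most 2.92, against at least 5.08 in static leaflets. The myeloid transcription factor SPI1 (-2.51, SE 0.33, adjusted p = 7.28e-06) and AIF1 (-2.21, SE 0.41, adjusted p = 0.00025) fell clearly as well, and ITGAM, named here after its values were seen and near the bottom of the scale in both groups, was the clear rise (0.21), with its call lost under quantile normalization. With the covariate on these 12 arrays alone, SPI1, AIF1 and ITGAM kept their direction and lost their call (adjusted p = 0.259, 0.394 and 0.795). What part cell loss had in the falls of these markers was not tested.

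Sensors and transducers of innate immunity fell along with them. Of 18 genes of the NF-kB and Toll-like receptor pathway 8 fell, 4 clearly, and 2 rose, and the median of -0.46 was -0.53 with the covariate. TLR4, the endotoxin receptor, which valve interstitial cells are known to carry, lay between 3.25 and 7.02 in stretched leaflets (median 5.90) and between 8.08 and 9.60 in static leaflets (median 8.78). The groups did not overlap; the change was -3.25 (SE 0.49, adjusted p = 3.28e-05), -1.79 in stretched leaflet 1, and -3.27 (adjusted p = 2.41e-05) with 5HT plus Fluox. TLR2, a receptor for bacterial lipoproteins, lay between 6.62 and 8.72 in stretched leaflets (median 7.66) and between 9.19 and 10.42 in static leaflets (median 9.76), a change of -2.11 (SE 0.36, adjusted p = 0.000125). The inhibitors TNIP1 (-2.22, SE 0.32, adjusted p = 2.14e-05) and NFKBIA (-1.31, SE 0.23, adjusted p = 0.000162), both known to be induced by NF-kB itself, fell without overlap too.

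Interferon genes fell widely, and 6 of the falls were clear. In all, 22 of 37 interferon-induced or interferon-pathway genes fell and 1 rose, against 32% and 20.2% of all symbols. The median was -1.36, and -0.84 with the covariate. Most of the falls were not clear, but the 6 clear falls were 16.2% of the list, against 9.33% of all symbols. Those of smallest p were upstream parts of the pathway and not its classical induced genes. IRF3, which switches on interferon genes, lay between 5.13 and 6.02 in stretched leaflets (median 5.88) and between 7.70 and 8.55 in static leaflets (median 8.14), and its change of -2.40 (SE 0.30, adjusted p = 3.73e-06) was -2.92 with the covariate. The receptor chain IFNAR2 (-2.30, SE 0.38, adjusted p = 9.76e-05) and the kinases TYK2 (-1.59, SE 0.22, adjusted p = 1.32e-05) and JAK1 (-0.89, SE 0.15, adjusted p = 0.000127), which pass on the signal of the receptor, were clear as well; a second, dimmer probe set of JAK1 was not called (-0.58, adjusted p = 0.0741). The induced genes were more variable. GBP1, a guanylate-binding protein, lay between 5.61 and 11.94 in stretched leaflets (median 9.71) and between 12.14 and 14.49 in static leaflets (median 13.27), and its change of -4.11 (SE 1.02, adjusted p = 0.00295) was -2.09 with the covariate (adjusted p = 0.186). PSMB8, an interferon-induced subunit of the immunoproteasome, had a change of -2.85 (SE 0.61, adjusted p = 0.00103) and of -1.78 with the covariate (adjusted p = 0.0762).

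Single cytokines and receptors fell clearly, while the shares of falls and clear falls in their list lay near those of all symbols. Of 51 measured 19 fell and 3 rose, and 4 falls and 1 rise were clear. Among all symbols 32% fell, 9.33% were clear falls and 20.2% rose, so rises were fewer in this list. Its median was -0.60 in the plain fit, against -0.20 for all symbols, and came to 0.00517 with the covariate. CSF3, the granulocyte colony-stimulating factor, lay between 2.56 and 3.61 in stretched leaflets (median 2.85) and between 4.91 and 6.92 in static leaflets (median 5.76), and changed by -2.96 (SE 0.36, adjusted p = 2.60e-06). The chemokine receptor CCR1 changed by -3.39 (SE 0.58, adjusted p = 0.000135). IL10RB, a chain of the interleukin 10 receptor, changed by -2.78 (SE 0.22, adjusted p = 1.11e-08), with stretched levels at the bottom of the scale. The chemokines CCL5 (-3.09, with the covariate -1.60, adjusted p = 0.162) and CXCL9 (-2.78 and -1.87, adjusted p = 0.247) fell and were not clear. PTGES, the inducible prostaglandin E synthase, lay between 6.50 and 9.59 in stretched leaflets (median 9.43) and between 11.31 and 11.82 in static leaflets (median 11.51), a clear change of -2.90 (SE 0.46, adjusted p = 5.22e-05), while the cyclooxygenase PTGS2 that feeds it changed by -1.45 (SE 0.40, adjusted p = 0.00626), of which -0.38 was left with the covariate (adjusted p = 0.445). The acute-phase gene SAA2 fell in its brightest probe set (-3.88, SE 0.41, adjusted p = 4.98e-07), and a second one, with a mean of 9.32 in stretched and 9.39 in static leaflets, was not called (-0.07, adjusted p = 0.89), so the call rests on 1 of the probe sets.

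Genes that cut and assemble matrix changed in both directions. TIMP3, an inhibitor of metalloproteinases that stays bound to the matrix, lay between 7.62 and 8.89 in stretched leaflets (median 8.29) and between 2.74 and 5.51 in static leaflets (median 4.62). It was the clear change of smallest p in the list of proteases and inhibitors, 3.73 (SE 0.34, adjusted p = 7.15e-08), and with 5HT plus Fluox the change was 4.76 (adjusted p = 2.71e-09). MMP14, the membrane-bound metalloproteinase that cuts collagen and activates other proteases, lay between 4.99 and 6.23 in stretched leaflets (median 5.78) and between 7.57 and 9.65 in static leaflets (median 8.68), and fell by 3.14 (adjusted p = 1.45e-07). The sheddases ADAM17 (-1.98, SE 0.34, adjusted p = 0.000139) and ADAM9 (-0.95, SE 0.11, adjusted p = 1.26e-06) fell in their brightest probe sets; among their other probe sets above 5, 1 of ADAM17 rose (0.96, adjusted p = 0.0412) and 1 of ADAM9 was not called (0.09, adjusted p = 0.766). BMP1, the procollagen C-proteinase, lay between 4.88 and 5.58 in stretched leaflets (median 5.13) and between 6.59 and 8.16 in static leaflets (median 7.78), a change of -2.44 (SE 0.28, adjusted p = 1.65e-06). PLOD1, a lysyl hydroxylase of collagen, lay between 7.70 and 10.23 in stretched leaflets (median 9.25) and between 11.10 and 11.42 in static leaflets (median 11.27), and fell by 2.22 (adjusted p = 1.32e-05), while SPARC, a collagen-binding secreted protein, rose by 2.09 (SE 0.27, adjusted p = 4.69e-06). MMP1, a secreted collagenase, spread from 2.31 to 12.07 in stretched leaflets, wider than in static leaflets (8.07 to 11.94), and was not clear (-3.99, with the covariate -2.42, adjusted p = 0.264).

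Sulfated glycans and basement membrane changed at single steps. SULF2, which trims sulfate from heparan sulfate outside the cell, lay between 6.76 and 9.91 in stretched leaflets (median 8.88) and between 5.397 and 5.83 in static leaflets (median 5.64). Its rise of 3.11 (SE 0.35, adjusted p = 1.25e-06) was smallest in stretched leaflet 1 (1.13). EXT1, which builds the heparan sulfate chain, rose by 1.74 (SE 0.34, adjusted p = 0.000505); a dimmer probe set of it was not called. PAPSS1, which makes the sulfate donor, changed by -1.19 (SE 0.19, adjusted p = 6.15e-05), and HAPLN1, a link protein that ties hyaluronan to proteoglycans, by -2.06 (SE 0.45, adjusted p = 0.00112). The laminin chain LAMB2 rose (1.21, SE 0.26, adjusted p = 0.000875) and the chain LAMC1 fell in its brightest probe set (-1.48, SE 0.28, adjusted p = 0.000297), and 1 of its 3 others was not called (-0.19, adjusted p = 0.572). In all, 2 rises and 3 falls of 21 glycosaminoglycan genes were clear.

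Adhesion genes went both ways. ITGA5, the fibronectin receptor chain, lay between 4.55 and 7.63 in stretched leaflets (median 6.72) and between 9.04 and 9.83 in static leaflets (median 9.24), a change of -2.85 (SE 0.48, adjusted p = 0.000112) that was -1.47 with the covariate. ITGAV, the chain of integrins that bind vitronectin and release latent TGF-beta, fell too (-1.43, SE 0.28, adjusted p = 0.000484), as did talin TLN1, which links integrins to actin (-1.46, SE 0.28, adjusted p = 0.000411). Vinculin, VCL, a reinforcer of loaded adhesions, lay between 8.999 and 9.76 in stretched leaflets (median 9.40) and between 8.47 and 8.92 in static leaflets (median 8.57), a smaller rise of 0.77 (SE 0.11, adjusted p = 2.89e-05) without overlap. Of 18 genes of this list 5 rose and 6 fell, and 1 rise and 3 falls were clear.

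Many fibroblast genes and several contractile genes rose. Of 19 markers of valve interstitial fibroblasts 12 rose and 3 fell, 6 and 3 of them clearly, but the median of 1.46 was 0.69 with the covariate and 0.15 in stretched leaflet 1. THY1, a surface protein of fibroblasts, lay between 10.02 and 11.05 in stretched leaflets (median 10.59) and between 5.84 and 7.65 in static leaflets (median 6.998), a change of 3.76 (SE 0.27, adjusted p = 4.98e-09) that the covariate left at 3.77. Among markers of smooth muscle and pericytes 5 of 11 rose and 1 fell, with 3 clear rises. Calponin, CNN1, lay between 7.33 and 8.86 in stretched leaflets (median 7.98) and between 3.70 and 6.89 in static leaflets (median 4.52), a change of 3.17 (SE 0.503, adjusted p = 5.77e-05). TAGLN, an actin-binding protein of contractile cells, changed by 2.02 (SE 0.34, adjusted p = 9.10e-05), the smooth muscle gamma actin ACTG2 by 1.58 (SE 0.27, adjusted p = 0.000134), and the nonmuscle myosin MYH10 by 1.76 (SE 0.30, adjusted p = 0.000111). A second probe set of ACTG2, with a mean of 5.78 in stretched and 5.45 in static leaflets, was not called (0.33, adjusted p = 0.751). PDGFRB, the platelet-derived growth factor receptor of mesenchymal cells, was the clear fall, at -1.41 (SE 0.27, adjusted p = 0.000357). The smooth muscle actin ACTA2 had a change of 2.26 (SE 0.68, adjusted p = 0.0105) with overlapping groups, and 1.90 with the covariate (adjusted p = 0.129).

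Genes listed for neural and Schwann cells were among the clear changes in both directions, although the list is short. S100B lay between 7.95 and 9.80 in stretched leaflets (median 9.08) and between 3.97 and 7.09 in static leaflets (median 6.78), a rise of 2.61 (SE 0.43, adjusted p = 9.64e-05), and GAP43, a growth cone protein, changed by 2.32 (SE 0.32, adjusted p = 1.31e-05). MBP, a myelin protein, fell (-2.28, SE 0.19, adjusted p = 2.91e-08). When the covariate was fitted on these 12 arrays alone, S100B and GAP43 kept their direction and lost their call (adjusted p = 0.343 and 0.28). The list's mean level lay between 5.55 and 5.96 in stretched leaflets and between 4.82 and 5.41 in static leaflets.

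Growth factors and morphogens changed at several ends of their pathways. BMP4, a ligand of the bone morphogenetic protein family, lay between 8.11 and 9.99 in stretched leaflets (median 9.60) and between 6.54 and 7.29 in static leaflets (median 6.97). Its rise was 2.28 (SE 0.27, adjusted p = 2.34e-06), 2.74 with the covariate and 2.83 (adjusted p = 1.14e-07) between the groups with 5HT plus Fluox. BAMBI, a decoy receptor that dampens these signals and is known to be induced by them, rose by 2.04 (SE 0.36, adjusted p = 0.00019), and ID2, a known target of the same pathway, fell (-2.17, SE 0.35, adjusted p = 7.41e-05). The activin receptor ACVR1B lay between 3.36 and 6.50 in stretched leaflets (median 4.93) and between 9.36 and 10.57 in static leaflets (median 9.93), a change of -5.03 (SE 0.43, adjusted p = 3.65e-08). Of the 27 genes of this list 10 rose and 5 fell, 4 and 3 clearly.

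Pleiotrophin, PTN, a heparin-binding growth factor, lay between 10.37 and 11.68 in stretched leaflets (median 10.97) and between 7.37 and 9.14 in static leaflets (median 8.14), a rise of 2.81 (SE 0.30, adjusted p = 6.56e-07) that was seen in stretched leaflet 1 too (2.15). AREG, a ligand of the epidermal growth factor receptor, lay between 5.39 and 6.94 in stretched leaflets (median 6.39) and between 2.12 and 3.58 in static leaflets (median 3.05), a change of 3.22 (SE 0.36, adjusted p = 9.18e-07) with static levels near the bottom of the scale. DDR1, a receptor tyrosine kinase that collagen activates, lay between 4.09 and 5.66 in stretched leaflets (median 4.87) and between 6.82 and 7.71 in static leaflets (median 6.99), and changed by -2.17 (SE 0.29, adjusted p = 7.87e-06). In the Wnt pathway the receptor FZD4 fell (-3.41, SE 0.504, adjusted p = 2.59e-05) and LEF1, a transcription factor of the pathway, rose (1.97, SE 0.31, adjusted p = 5.20e-05).

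Some fast-response and vasoactive genes were part of the clear rises. Of 24 immediate-early transcription factors 10 rose and 6 fell, 4 and 1 of them clearly. Among all symbols 20.2% rose and 32% fell, with 3.49% clear rises and 9.33% clear falls. JUN, a subunit of AP-1, lay between 10.02 and 11.31 in stretched leaflets (median 10.55) and between 8.26 and 8.62 in static leaflets (median 8.44), a change of 2.22 (SE 0.24, adjusted p = 5.46e-07). IER2 (1.32, SE 0.16, adjusted p = 2.78e-06) and KLF4, a factor that fluid shear is known to induce in endothelium (1.58, SE 0.22, adjusted p = 1.70e-05), rose without overlap. The angiotensin receptor AGTR1 rose at a low level (2.40, SE 0.42, adjusted p = 0.000157), and NPPC, the C-type natriuretic peptide, lay between 2.77 and 6.53 in stretched leaflets (median 6.08) and between 1.90 and 2.55 in static leaflets (median 2.34), with stretched leaflets 5 and 6 nearest to the static ones, and changed by 2.93 (SE 0.65, adjusted p = 0.00133). ITPR3, a calcium channel of the endoplasmic reticulum, was between 3.28 and 3.50 in stretched leaflets and between 5.82 and 6.94 in static leaflets (-3.08, SE 0.23, adjusted p = 6.34e-09). The calmodulin genes, which code for the same protein, moved apart: CALM2 rose (0.98, SE 0.15, adjusted p = 5.24e-05) and CALM3 fell (-1.76, SE 0.17, adjusted p = 2.22e-07).

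Several stress and growth arrest genes rose. GADD45A, which DNA damage and other stresses induce, lay between 11.54 and 12.93 in stretched leaflets (median 12.76) and between 9.15 and 9.69 in static leaflets (median 9.41). The change was 3.15 (SE 0.31, adjusted p = 2.39e-07), 3.36 in stretched leaflet 1 and 3.11 (adjusted p = 2.11e-07) with 5HT plus Fluox. Its relative GADD45G changed by 4.47 (SE 0.54, adjusted p = 2.38e-06). PLK2, a stress-responsive polo kinase, lay between 8.30 and 10.84 in stretched leaflets (median 10.31) and between 5.67 and 7.56 in static leaflets (median 6.31), a change of 3.62 (SE 0.54, adjusted p = 2.73e-05) that was 5.10 with the covariate. The inducible chaperone HSPA6 (4.08, SE 0.67, adjusted p = 8.55e-05), the small heat shock protein HSPB6 of muscle (2.03, SE 0.26, adjusted p = 4.82e-06) and HSPA2 (1.67, SE 0.25, adjusted p = 2.63e-05) rose clearly. Chaperones did not rise as a class in the plain fit. Of 48 heat shock and chaperone genes 13 rose and 7 fell, 5 and 2 of them clearly, against 20.2% and 32% of all symbols for rises and falls. Their median was -0.004 in the plain fit and 0.62 with the covariate. CDK2, a kinase of the cell cycle, lay between 3.39 and 5.16 in stretched leaflets (median 4.32) and between 6.22 and 6.95 in static leaflets (median 6.39), a change of -2.15 (SE 0.28, adjusted p = 6.37e-06), and the mitotic kinase AURKA rose (2.24, SE 0.40, adjusted p = 0.000203). CASP2, a caspase linked to stress, fell (-2.96, SE 0.26, adjusted p = 5.43e-08). In the cell cycle list 17 of 40 genes rose and 5 fell, and 4 rises and 2 falls were clear.

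Amino acid genes rose more often than they fell, and nucleotide genes had clear changes both ways. Of 49 amino acid and polyamine genes 17 rose and 9 fell, 4 and 1 of them clearly. The glutamine transporter SLC1A5 lay between 8.74 and 10.58 in stretched leaflets (median 9.92) and between 7.63 and 8.69 in static leaflets (median 7.93), a rise of 1.79 (SE 0.30, adjusted p = 0.000105). CDO1, which degrades cysteine, rose by 2.42 (SE 0.35, adjusted p = 2.14e-05), and MCCC2, of leucine breakdown, by 1.46 (SE 0.22, adjusted p = 3.62e-05), while BCKDK, the kinase that restrains branched-chain amino acid breakdown, changed by -3.42 (SE 0.39, adjusted p = 1.30e-06). Of 30 nucleotide genes 5 rose and 9 fell, 3 and 2 clearly. In purine synthesis PPAT, the first committed step (1.43, SE 0.30, adjusted p = 0.000778), and ATIC, the last step to inosine monophosphate (2.27, SE 0.38, adjusted p = 0.000112), rose. Another probe set of ATIC, with a mean of 5.63 in stretched and 5.43 in static leaflets, was not called (0.19, adjusted p = 0.688). Its dimmer probe sets were not called either. The salvage enzyme CDA changed by -5.76 (SE 0.498, adjusted p = 4.07e-08), with stretched leaflet 1 at 5.99 and the others near the bottom of the scale.

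Iron and zinc carriers and single lysosomal enzymes fell among the clear changes. SLC39A14, a zinc and iron importer, lay between 5.201 and 5.36 in stretched leaflets (median 5.22) and between 7.53 and 10.25 in static leaflets (median 8.71), a tight group against a wide one and a change of -3.53 (SE 0.37, adjusted p = 5.19e-07). The iron transporters SLC11A1 (-3.04, SE 0.37, adjusted p = 2.61e-06) and SLC11A2 (-2.36, SE 0.37, adjusted p = 4.60e-05) fell in their brightest probe sets. A dimmer probe set of SLC11A2 fell too (-0.93, adjusted p = 0.0141) and another was not called (0.43, adjusted p = 0.225). In all, 12 of 24 genes of metals fell and 1 rose, with 5 clear falls. The lysosomal protease CTSC had 4 probe sets above 5 and all were clear falls, with changes of -3.52, -3.99, -3.31 and -3.53. CTSH, another cathepsin, lay between 9.95 and 10.64 in stretched leaflets (median 10.34) and between 11.71 and 12.46 in static leaflets (median 12.16), a change of -1.82 (SE 0.16, adjusted p = 6.46e-08), and GLA, which cleaves galactose from glycolipids, rose (1.77, SE 0.36, adjusted p = 0.000628). ZNF395, a zinc finger protein, with 3 probe sets (-3.86, -4.44 and -3.95), and CKAP4, a membrane protein of the endoplasmic reticulum, with 3 (-1.96, -1.58 and -2.30), were the other genes chosen because all their probe sets above 5 were clear. Of 984 symbols with several probe sets above 5, 228 had a clear one, and in 177 of these all such probe sets changed in 1 direction; 2 symbols were clear in both directions.

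Some detoxifying enzymes and folding genes of the endoplasmic reticulum fell clearly. Of 52 antioxidant and xenobiotic genes 16 fell and 6 rose, with 6 clear falls and 1 clear rise, near the share of falls among all symbols (32%). MGST1, a membrane-bound glutathione transferase, lay between 6.75 and 9.01 in stretched leaflets (median 7.35) and between 9.91 and 11.05 in static leaflets (median 10.17), a change of -2.78 (SE 0.34, adjusted p = 3.25e-06). The glutathione transferase GSTO1 (-2.23, SE 0.32, adjusted p = 1.97e-05) and PRDX4, the peroxiredoxin of the secretory pathway (-1.14, SE 0.15, adjusted p = 7.77e-06), fell without overlap too. In folding and the unfolded protein response 18 of 40 fell and 4 rose, and 5 falls were clear. These included the disulfide isomerase PDIA4 (-1.004, SE 0.14, adjusted p = 2.03e-05) and SPCS1, a subunit of the signal peptidase (-1.29, SE 0.21, adjusted p = 7.89e-05).

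Protein disposal outside the proteasome had clear members in both directions. Among ubiquitin genes 19 of 42 fell and 6 rose, 6 and 2 of them clearly. UBE2M, which carries a ubiquitin-like modifier to cullins, lay between 3.32 and 5.16 in stretched leaflets (median 3.52) and between 5.75 and 7.002 in static leaflets (median 5.97), a change of -2.34 (SE 0.29, adjusted p = 3.01e-06), and UBB, a polyubiquitin gene that stress induces, rose by 0.73 (SE 0.09, adjusted p = 6.32e-06). In autophagy 10 of 25 fell and 2 rose. Members of the family that coats autophagosomes moved apart: MAP1LC3A rose (1.60, SE 0.22, adjusted p = 9.74e-06) and GABARAPL1 fell (-0.996, SE 0.13, adjusted p = 6.13e-06). Of 47 lysosome genes 17 fell and 3 rose, and 5 falls (10.6%) and 1 rise were clear. These falls and clear falls were near the shares of all symbols (32% and 9.33%).

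In the nucleus, DNA replication and repair had clear falls at the single-strand binding step. RPA1, the large subunit of replication protein A, lay between 7.06 and 9.14 in stretched leaflets (median 8.11) and between 9.30 and 9.96 in static leaflets (median 9.56), a change of -1.60 (SE 0.28, adjusted p = 0.000149), and its partner RPA2 changed by -1.27 (SE 0.20, adjusted p = 6.65e-05). POLD2, a subunit of DNA polymerase delta, was clear too (-1.92, SE 0.27, adjusted p = 1.59e-05). In this list 16 of 50 fell and 6 rose, and 8 falls and 2 rises were clear. The share of falls was near the 32% of all symbols, and clear falls were 16% of the list, against 9.33% of all symbols. Of 82 splicing factors 27 fell, also near the share of all symbols, and 5 rose. Clear falls were 5 (6.1%), a smaller share than among all symbols. One was HNRNPD, which binds AU-rich elements of messenger RNA (-0.80, adjusted p = 3.69e-06).

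**Figure D5:**
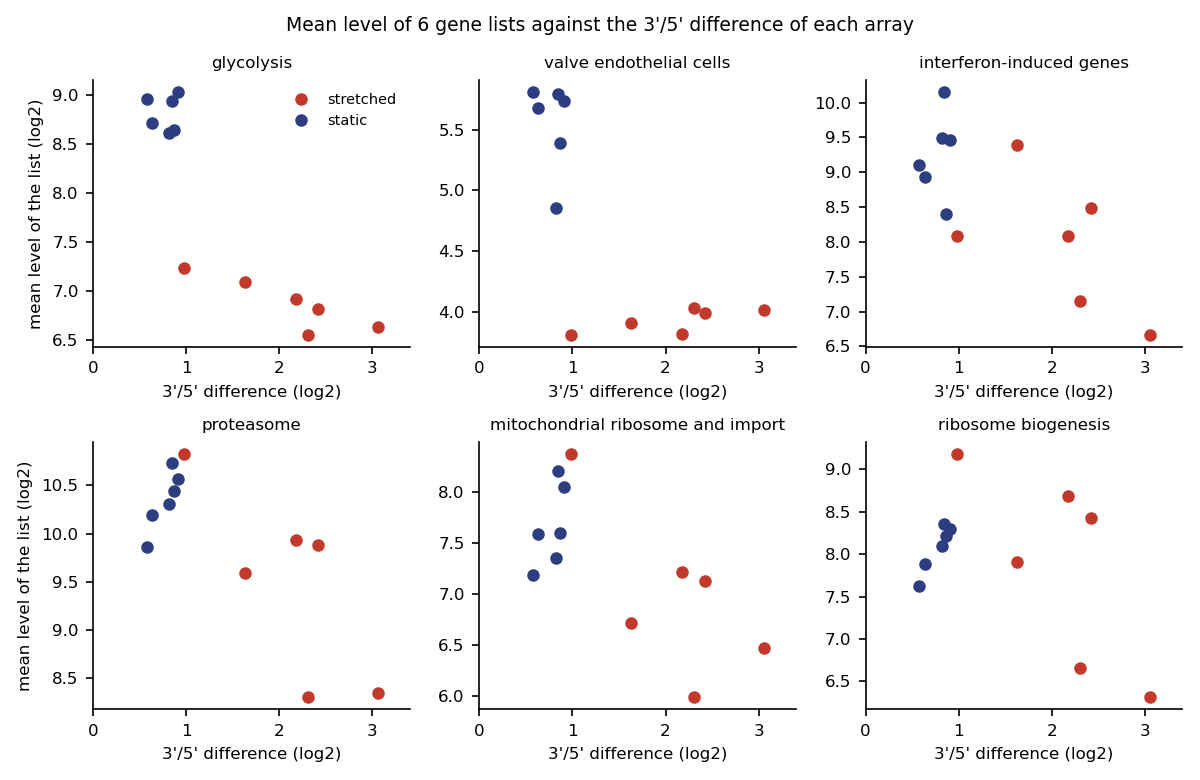
Mean level (log2) of 6 gene lists in each array against the 3′ to 5′ difference of that array (log2), with stretched leaflets in red and static leaflets in blue. Glycolysis and endothelial markers lie below the static arrays in every stretched leaflet, including leaflet 1 at 0.98. The proteasome, the mitochondrial ribosome and ribosome biogenesis lie above the static arrays in leaflet 1. They lie lowest in stretched leaflets 5 and 6, at 2.305 and 3.06, and higher in leaflet 3, at 2.42, than in leaflet 4, at 1.63.

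Large machines of protein turnover read lower without a clear member. Of 36 proteasome genes 18 fell and 0 rose, and 0 were clear; the median was -0.80 in the plain fit, -0.28 with the covariate and 0.45 in stretched leaflet 1. The list's mean level was 10.82 in stretched leaflet 1, above every static leaflet, between 9.60 and 9.93 in stretched leaflets 2 to 4, 8.31 and 8.35 in leaflets 5 and 6, and between 9.86 and 10.73 in static leaflets. In stretched leaflet 1, 21 of the 36 lay above every static leaflet and 1 below, against 30.1% and 23.4% of all symbols. PSMD3, a lid subunit, lay between 5.598 and 9.32 in stretched leaflets (median 7.95) and between 9.16 and 10.12 in static leaflets (median 9.69), a change of -2.13 (SE 0.501, adjusted p = 0.00203) that was -0.89 with the covariate (adjusted p = 0.19). PSMD5, an assembly chaperone, changed by -1.99 (SE 0.43, adjusted p = 0.00102) and by -1.26 with the covariate (adjusted p = 0.0738).

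Protein synthesis lists had few clear members, and not all of them read lower. Among 71 genes of the mitochondrial ribosome and protein import 26 fell, 1 rose and 0 were clear, with a median of -0.67 (-0.51 with the covariate) and 0.58 in stretched leaflet 1, where 39 lay above every static leaflet. MRPS34, of the small subunit, changed by -1.75 (SE 0.42, adjusted p = 0.00246) and in stretched leaflet 1 by -0.01. Of 23 aminoacyl-tRNA synthetases 9 fell, 1 rose and 0 were clear; HARS, for histidine, had a change of -2.08 (SE 0.52, adjusted p = 0.00314) and of 0.20 in stretched leaflet 1. In ribosome biogenesis 11 of 60 fell, a smaller share than the 32% of all symbols, and 5 rose, with a median of -0.23 that was 0.499 with the covariate and 1.21 in stretched leaflet 1, where 48 lay above every static leaflet. UTP15, of the small subunit processome, was the clear rise (1.98, SE 0.38, adjusted p = 0.000346), and IMP3 of the same complex fell without being clear (-1.84, SE 0.58, adjusted p = 0.0137, with the covariate -1.49, adjusted p = 0.163). The mean levels of these lists were lowest in stretched leaflets 5 and 6, whose 3′ to 5′ differences were 2.305 and 3.06. They did not follow that difference throughout, since leaflet 3, at 2.42, read higher than leaflet 4, at 1.63. Leaflets 5 and 6 also had the highest spike-in levels, 13.1 and 12.99. What part either control had in the change of these lists was not tested further.

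Vesicle traffic and chromatin had clear members on a broader fall. Of 74 vesicle genes 51 fell and 3 rose, and 9 falls and 2 rises were clear. COPA, a coat subunit of vesicles that return from Golgi to endoplasmic reticulum, lay between 10.48 and 11.12 in stretched leaflets (median 10.64) and between 11.38 and 11.69 in static leaflets (median 11.53), a change of -0.80 (SE 0.096, adjusted p = 2.36e-06), and the coat subunit COPG1 (-1.27, SE 0.18, adjusted p = 1.91e-05) and the retrieval receptor KDELR1 (-1.16, SE 0.17, adjusted p = 2.72e-05) fell as well. COPZ2, an alternative subunit of the same coat, went the other way: it lay between 7.80 and 10.99 in stretched leaflets (median 9.73) and between 4.12 and 6.87 in static leaflets (median 6.09), a change of 3.89 (SE 0.51, adjusted p = 7.24e-06). Of 42 chromatin genes 27 fell and 4 rose, with 6 clear falls, among them the demethylase KDM2A (-1.37, SE 0.14, adjusted p = 3.33e-07) and SMARCB1, a core subunit of the SWI/SNF remodelling complex (-1.66, SE 0.24, adjusted p = 2.13e-05). The nucleosome-binding HMGA1 had a larger change (-3.004, SE 0.71, adjusted p = 0.00206) that the covariate left at -1.65 (adjusted p = 0.139).

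Other clear genes stood out by size alone, with both levels well on the scale. Among the 12 largest such rises, the secreted C1QTNF3 changed by 5.18 in the plain fit and by 4.996 with the covariate. FAM46C lay between 7.77 and 10.76 in stretched leaflets (median 10.03) and between 4.60 and 6.31 in static leaflets (median 5.36), and its change was 4.36 (SE 0.66, adjusted p = 3.51e-05), with 4.40 in stretched leaflet 1. NANOS1, an RNA-binding repressor, was larger with the covariate (4.92) than without (3.82). The others beside genes already given were FXYD7, a sodium pump regulator (4.08 with the covariate), the water and glycerol channel AQP3 (4.56), ANGPTL5 (3.36), the small proteoglycan ASPN (3.77) and MRAP2 (3.30).

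Among the 12 largest falls, SCAMP4, a secretory carrier membrane protein, lay between 3.404 and 4.96 in stretched leaflets (median 4.31) and between 7.83 and 8.21 in static leaflets (median 8.04). Its change of -3.69 (SE 0.22, adjusted p = 3.50e-10) was -3.07 in stretched leaflet 1. The lectin-like CLEC2D lay between 4.37 and 8.16 in stretched leaflets (median 6.21) and between 9.06 and 10.66 in static leaflets (median 9.76), a change of -3.61 (SE 0.47, adjusted p = 5.65e-06). With the covariate the glucose transporter SLC2A1 had a change of -3.37 (-4.64 without), the splicing kinase CLK2 of -4.61, the cytokine receptor IL27RA of -3.196 and the chitinase-like CHI3L1 of -4.64. All of these had the 6 stretched leaflets on 1 side of all static leaflets, as the rule requires.

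The largest changes that lost their call with the covariate had wide stretched groups. Among rises they were SCARA5, a scavenger receptor for ferritin (3.39, with the covariate 2.70, adjusted p = 0.0874), the calcitonin receptor CALCR (2.72, 1.71), ITIH4 (2.65, 2.13), KCTD8 (2.65, 1.68), MGAT4C (2.62, 1.64) and the importin KPNA5 (2.62, 1.64). Among falls, beside GBP1 and MMP1, were the interferon-inducible ubiquitin-like UBD (-3.64, -1.73), the interleukin 18 antagonist IL18BP (-3.28, -0.28) and C1H15orf48 (-3.19, -1.96). IL18BP also lost its call without stretched leaflet 5 or 6 (-2.15, adjusted p = 0.129, without 6) or without any 1 of the static leaflets. Arginase ARG1 lay between 4.69 and 12.10 in stretched leaflets (median 9.58) and between 11.62 and 12.72 in static leaflets (median 12.04), with stretched leaflet 1 inside the static range, and its change of -3.26 (SE 0.89, adjusted p = 0.00558) was -2.17 with the covariate (adjusted p = 0.16).

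Some genes were called with the covariate and not without it. Of the rises, JPT1 had a change of 1.61 (adjusted p = 0.104) and of 4.04 (adjusted p = 0.000167) with the covariate, and EZH2, the methyltransferase of Polycomb complexes, lay between 3.06 and 8.63 in stretched leaflets (median 8.39) and between 5.74 and 6.75 in static leaflets (median 6.42), with 1 stretched leaflet below all static ones, and had 1.18 and 3.54 (adjusted p = 0.000966). The interferon regulatory factor IRF8 (1.54, then 3.88, adjusted p = 0.000121) and the chemokine CCL3L1 (1.46, then 3.72, adjusted p = 0.0106) were the others. Of the falls, the brightest probe set of the lysosomal lipase LIPA had -1.02 and -1.75 (adjusted p = 0.0182), while its other one was called in both fits (-1.503, adjusted p = 0.011, and -2.05, adjusted p = 0.0127). THYN1 had -0.66 and -1.62 (adjusted p = 0.014), ACTR1B, of dynactin, -0.98 and -1.57 (adjusted p = 0.0274), and RASSF2 -0.77 and -1.54 (adjusted p = 0.0151). Part of this rested on stretched leaflet 6: without it the change of EZH2 was 2.08 (adjusted p = 0.0104) in the plain fit, that of JPT1 2.26 (adjusted p = 0.0223), that of IRF8 2.02 (adjusted p = 0.0412) and that of CCL3L1 2.40 (adjusted p = 0.0217), and LIPA, THYN1 and ACTR1B were called as well. ACTR1B and LIPA also gained a call without other single leaflets. In the groups with 5HT plus Fluox none of these 8 was called for stretched against static, at adjusted p of 0.118 or more.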

How the data were processed

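Total RNA of each leaflet piece was hybridised to a porcine Affymetrix array. The authors deposited log2 expression values per probe set, normalized over all arrays with GCRMA, per the submitters' processing notes, which also name Partek; versions are not given in the sources used here. The authors' deposited table of their own analysis of variance holds p-values and fold changes, per the file headers, which were used only where that table is named. GCRMA fits each array's background, so low values are compressed. Scan dates and extraction batches are not given in the sources used here, depth does not apply to arrays, and their number limits the precision.

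Group means of all 24 arrays were fitted with limma 3.58.1 in R 4.3.3, and stretched minus static without agents was tested over 23999 probe sets with Benjamini-Hochberg adjustment, called at an adjusted p under 0.05. The script was checked on simulated data. Of the probe sets 10069 carried 1 symbol, 198 several and 13732 none in the platform annotation. A symbol was read by its brightest probe set.

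The comparison, the 61 gene lists and the named genes were chosen with earlier results of these data known. Named were the 12 largest clear rises and falls whose higher group mean was at least 5 and lower at least 4, per list up to 4 clear members of smallest p and 2 that lost their call, the 6 largest lost rises and falls, 4 each called with the covariate alone, and 3 symbols with all of at least 3 bright probe sets clear. Replicate numbers did not pair the arrays: deviations of same-numbered stretched and static arrays correlated at 0.397, -0.000436, -0.218, -0.215, 0.122 and 0.237. A search of promoter motifs was left out, since no promoter sequence was used here.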

Additional observations from a re-analysis of the deposited data

Results flagged for a closer look

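Among 410 groups of 6 values examined, for the named genes and the array measures, 26 held 1 array whose gap to the nearest other was a larger share of the group's range than Dixon's critical value for 6 values; chance gives about 1 in 20. The values below are log2 levels of the array that stood apart.

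Stretched leaflet 6 was low for ASNS (9.584, nearest 11.54), BAMBI (9.295, nearest 10.51), DNAJB1 (11.64, nearest 12.91), EZH2 (3.056, nearest 8.253), GADD45A (11.54, nearest 12.7), HSPA6 (10.53, nearest 12.86), HSPH1 (10.79, nearest 12.91), PLK2 (8.297, nearest 10.14) and VEGFA (6.771, nearest 10.13), and high for RPA2 (7.556, nearest 6.638). This array had the widest 3′ to 5′ difference, 3.06, and its part in these values was not tested.

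Stretched leaflet 1 was the highest of its group for CDA (5.989, nearest 2.995) and CASP2 (5.24, nearest 3.929) and the lowest for RASSF2 (3.101, nearest 4.091). Stretched leaflet 4 was high for CXCL9 (10.42, nearest 7.457), leaflet 3 for SLC11A1 (3.488, nearest 3.051) and leaflet 5 for SLC16A3 (2.83, nearest 2.599); the last of these gaps is small and lies at the bottom of the scale.

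Among static leaflets, number 4 was low for CDH5 (5.473, nearest 7.848), ECSCR (7.359, nearest 9.657), S100B (3.967, nearest 6.619) and TAGLN (8.428, nearest 9.563). Static leaflet 3 was high for DDR1 (7.711, nearest 7.037) and ITGA5 (9.833, nearest 9.32) and low for PSMD5 (8.073, nearest 8.667). Static leaflet 2 was low for GABARAPL1 (11.22, nearest 11.6) and for the bacterial spike-ins (9.997, nearest 10.89), and static leaflet 6 was low for COPG1 (8.864, nearest 9.233).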

How the results depend on the processing

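The number of calls moved with the setting. Leaving out dim probe sets gave 8121 calls with 3362 higher, fitting only the 12 arrays 4208 higher, and centring 11573 higher. The 3′ to 5′ covariate gave 5176 (2123 higher, 3053 lower), the fit without the 3 widest stretched arrays 5485 (2268 and 3217), the covariate with only the 12 arrays 1015 (447 and 568), the spike-in level as a covariate 4738 (2011 and 2727) and both covariates 5184 (2329 and 2855). Clear probe sets numbered 708 (237 and 471) with only the 12 arrays, and after centring 1953 were clear rises and 1266 clear falls. Without 1 array at a time, calls numbered 10141 to 14722 and clear probe sets 2014 to 4492 (rises 618 to 1787, falls 1391 to 2705), the upper ends without stretched leaflet 1; 0 clear probe sets were clear in the opposite direction under any of these settings. With the replicate block 12899 were called and 2532 clear, 2351 of them shared. It took no call from a named gene and added that of JPT1 (adjusted p = 0.0467). The 3′ to 5′ difference of actin alone was 1.62 (exact permutation test, p = 0.0541). With the covariate on only the 12 arrays the sign turned for IL18BP (0.87), MMP1 (0.94), PECAM1 (0.19), VEGFA (0.34), the proteasome's median (0.47) and the mitochondrial ribosome's (0.0850), as it did for VEGFA with the covariate (0.13), for IL18BP (0.21) and the proteasome (0.0316) with both covariates, and for both list medians in stretched leaflet 1 (0.45 and 0.58); the cause was not tested. The cytokine list's median ended near 0 on the other side with the covariate (0.00517, and 0.0243 on only the 12 arrays), the spike-in covariate (0.0229) and both (0.0043); the cause was not tested. Signal near the bottom of the scale limits the falls of SLC16A3, MPI, ECSCR, ITGB2, CDA and IL10RB.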

Other observations

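Some genes of serine and asparagine synthesis and some heat shock chaperones rose in both fits. Of those given here DNAJB1 was clear and the others were not. All were picked out here after their values were seen, and their joint rise is given as values only. ASNS, the asparagine synthetase, lay between 9.58 and 12.53 in stretched leaflets (median 12.22) and between 9.27 and 9.91 in static leaflets (median 9.66), a change of 2.07 (SE 0.53, adjusted p = 0.00351) and of 3.54 (adjusted p = 1.05e-05) with the covariate. PSPH, the last step of serine synthesis, lay between 5.98 and 8.82 in stretched leaflets (median 8.06) and between 5.07 and 6.02 in static leaflets (median 5.18), a change of 2.34 (SE 0.42, adjusted p = 0.000193) and of 3.03 (adjusted p = 0.000159) with the covariate. PSAT1, the step before it, changed by 1.45 (SE 0.45, adjusted p = 0.0127) and by 1.81 (adjusted p = 0.0298) with the covariate. The chaperone HSPH1, a partner of HSP70, lay between 10.79 and 13.26 in stretched leaflets (median 13.09) and between 9.98 and 11.47 in static leaflets (median 10.85), with changes of 1.86 and, with the covariate, 2.71 (adjusted p = 0.000191). The cochaperone DNAJB1 was clear and lay between 11.64 and 13.52 in stretched leaflets (median 13.28) and between 9.55 and 11.11 in static leaflets (median 9.81), a change of 2.84 (SE 0.48, adjusted p = 0.000111).

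The arrays also differed in the spread of all their values. The interquartile range over all probe sets was 4.75 ± 0.19 in stretched and 5.11 ± 0.09 in static leaflets (SD, 6 arrays each; exact permutation test, p = 0.00216, adjusted p = 0.0036 over the 10 array measures), lower in 6 of 6 stretched arrays. The probe set for 18S ribosomal RNA averaged 7.26 ± 0.70 in stretched and 5.36 ± 0.63 in static leaflets, and that for 28S 8.30 ± 0.91 and 6.22 ± 0.41. In stretched leaflet 1, 467 called probe sets lay outside the static range on the side opposite to their group's change, and 6085 lay inside the static range.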
